A study of Oryza sativa Japonica Group with 5 samples.

Results

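The superoxide dismutases of rice were followed as transcripts in leaves of the mutant pls4 and of wild type rice (Oryza sativa, Japonica Group). Earlier results of these data were known when the family was set. It was taken as 6 loci of the 36475 listed per library, chosen by identifier and not by their values. They are the plastid Cu/Zn enzyme SODCP (Os08g0561700, chromosome 8), the iron enzymes Os06g0143000 and Os06g0115400 (both on chromosome 6), the cytosolic Cu/Zn enzymes SODCC1 (Os03g0351500, chromosome 3) and SODCC2 (Os07g0665200, chromosome 7), and the mitochondrial manganese enzyme SODA1 (Os05g0323900, chromosome 5). The names of SODCP, SODCC1, SODCC2 and SODA1 matched a gene of that name at the same relative place of the chromosome in the RefSeq table, while the name of the iron enzymes rests on the definition of the set and was not checked here. Leaf RNA came from pls4 plants (2 libraries, labelled as knockdown) and from wild type plants (3 libraries, labelled as non knockdown). The labels give leaf as the tissue and mesophyll as the cell type for all 5 libraries. They name neither the gene altered in pls4 nor the age of the leaf nor the growth conditions, and nothing says that replicates came from separate plants, so the spread behind the p-values may be technical, since it is that between libraries. The series ties pls4 to the response to rice sheath blight, and the question put to these data is how the genotypes differ in expression.

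Superoxide dismutases turn superoxide into oxygen and hydrogen peroxide, and they are grouped by the metal at the active site. Leaves make superoxide mainly in the photosynthetic electron transport of plastids, and also in mitochondria and at the plasma membrane, and superoxide crosses membranes poorly, so each compartment has its own enzymes. Iron superoxide dismutases of plants are typically plastid enzymes, so SODCP and the iron pair are described first, followed by the cytosolic and mitochondrial enzymes. The copper chaperone CCS loads copper into Cu/Zn enzymes. In Arabidopsis, plants short of copper lower their Cu/Zn superoxide dismutases and raise an iron one.

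The values are FPKM, which by definition are fragments scaled by gene length and by the total of the library. Comparing levels between genes assumes that this scaling holds, as the gene lengths used are not given. Summed FPKM was 736527 to 748458 in the pls4 libraries and 750735 to 758853 in the wild type libraries, and 18393 to 18538 loci per library reached an FPKM of 1. Absolute depth is unknown. Ratios of low values put wild type replicate 2 at 1.30 times the depth of replicate 1 and the other libraries at 0.953 to 1.05 times, an estimate that assumes low values to be whole multiples of 1 read and is tentative. Genotypes were compared with limma on log2(FPKM + 1), with Benjamini-Hochberg adjustment over the 19637 loci where 2 or more libraries reached an FPKM of 1. A call required an adjusted p under 0.05, and a fold change is pls4 minus wild type. Of the tested loci 52.0% were called, 33.4% higher and 18.5% lower in pls4. The median fold change over all tested loci was 0.15. Scaling each library by its median ratio moved that median by 0.15 and changed the split from 6566 higher and 3642 lower calls to 4243 higher and 4845 lower, and without pls4 replicate 2 there were 3997 higher calls. For this reason changes of the family are also given relative to the median of all loci.

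All 6 members passed the filter. Of these, 3 fell, 1 rose and 2 did not pass the test, against backgrounds of 18.5% lower and 33.4% higher. The 3 that fell are SODCP and the iron pair, and the 1 that rose is the cytosolic SODCC2. Cytosolic SODCC1 and mitochondrial SODA1 stood at nearly the same mean levels in both genotypes. The median fold change of the 6 members was -0.27, against 0.15 for all tested loci. Values of the genotypes did not overlap at 4 members, 3 of them lower and 1 higher in pls4. Over all tested loci they did not overlap at 69.9%, with 24.5% lower and 45.4% higher.

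**Figure D1:**
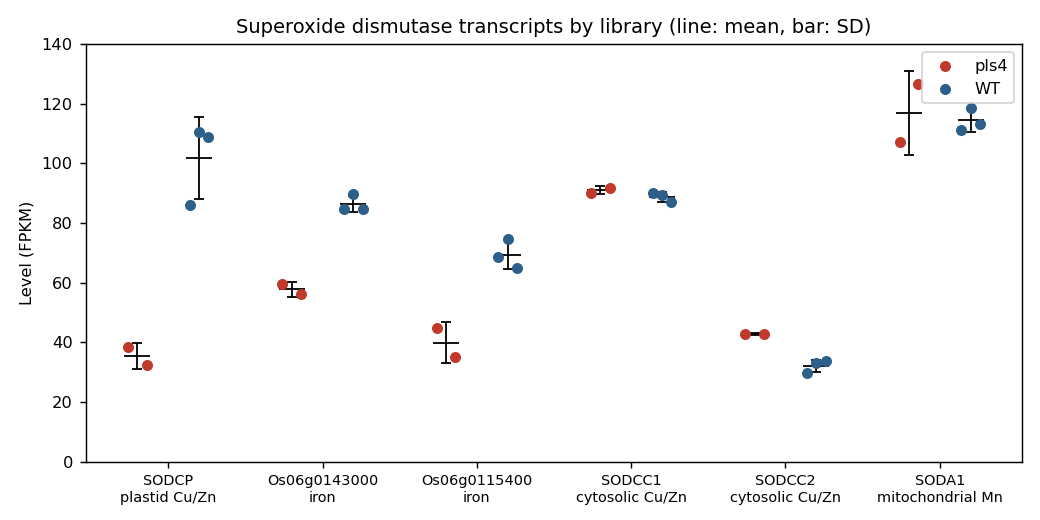
Level in FPKM of the 6 superoxide dismutase genes in each library, with pls4 in red and wild type in blue; lines are means and bars are SD (n = 2 for pls4, n = 3 for wild type). The pls4 libraries sit below every wild type library for SODCP, Os06g0143000 and Os06g0115400, and above every one for SODCC2. For SODCC1 and SODA1 the ranges of the genotypes overlap.

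SODCP, the plastid Cu/Zn enzyme, had the largest change of the family. Its level was 38.6 and 32.3 FPKM in the pls4 libraries, against 86.1, 110.4 and 109.0 FPKM in the wild type libraries. Every pls4 library lay far below every wild type library, with a gap of 47.5 FPKM between the nearest values. Means were 35.4 ± 4.49 FPKM in pls4 and 102 ± 13.6 FPKM in wild type (SD), which puts pls4 at 34.8% of the wild type mean. The log2 fold change was -1.49 ± 0.13 (SE; 95% interval -1.81 to -1.18; limma, adjusted p = 0.000122), or -1.64 relative to the median of all loci. Among all tested loci, 817 (4.16%) had a lower fold change. The spread between wild type libraries came mainly from replicate 1, which stood below the other two, and without it the fold change was -1.61.

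The iron enzymes fell as well, by less than SODCP. Os06g0143000 was at 59.6 and 56.1 FPKM in pls4, against 84.8, 89.6 and 84.9 FPKM in wild type. The groups were 25.2 FPKM apart at their nearest values, and the replicates of each genotype lay close together. Its log2 fold change was -0.57 ± 0.08 (95% interval -0.75 to -0.39; limma, adjusted p = 0.000858), a mean in pls4 of 66.9% of that in wild type. Os06g0115400 was at 44.8 and 35.1 FPKM in pls4, against 68.5, 74.8 and 65.0 FPKM in wild type. Here too no pls4 value reached a wild type value, the nearest being 20.2 FPKM apart, although the pls4 libraries differed more from each other (coefficient of variation 17.0%) than those of wild type (7.13%). This gene changed by -0.79 ± 0.12 (95% interval -1.07 to -0.51; limma, adjusted p = 0.00149). Relative to the median of all loci the iron genes changed by -0.72 and -0.94. The calls of SODCP and of both iron genes held under each of the 13 alternatives run, which included median ratio scaling, quantile normalization, the replicate block and leaving out each library.

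Among the cytosolic Cu/Zn enzymes, only SODCC2 passed the test. SODCC2 had 42.7 and 42.9 FPKM in pls4, against 29.8, 33.0 and 33.7 FPKM in wild type. The groups were 9 FPKM apart, and pls4 replicates differed by less than 1 FPKM. The fold change was 0.40 ± 0.08 (95% interval 0.20 to 0.60; limma, adjusted p = 0.00657), but 0.25 relative to the median of all loci. The call was lost under median ratio scaling (0.23, adjusted p = 0.0902) and under quantile normalization (0.24, adjusted p = 0.0670), so its rise depends on how the libraries are scaled. SODCC1 had 90.0 and 91.9 FPKM in pls4, against 90.2, 89.3 and 86.9 FPKM in wild type. Its values overlapped between genotypes, and the fold change was 0.03 ± 0.07 (limma, adjusted p = 0.717). The 95% interval of -0.14 to 0.20 allows a level in pls4 between 0.910 and 1.15 times that of wild type. SODCC1 and SODCC2 encode closely related proteins, and the sources used here do not say how reads shared by similar copies were counted.

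SODA1, the mitochondrial manganese enzyme, was the most abundant member in each of the 5 libraries. It had 107 and 127 FPKM in pls4, against 111, 119 and 113 FPKM in wild type. The pls4 libraries bracketed all 3 wild type libraries. The fold change was 0.03 ± 0.09 (limma, adjusted p = 0.830), with a 95% interval of -0.20 to 0.25 that allows a level of 0.873 to 1.19 times that of wild type. Both SODA1 and SODCC1 lay below the median of all loci, by 0.12 on the log2 scale, and with median ratio scaling their fold changes were -0.15 each, without passing the test. Without pls4 replicate 2 the fold change of SODA1 was -0.09.

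**Figure D2:**
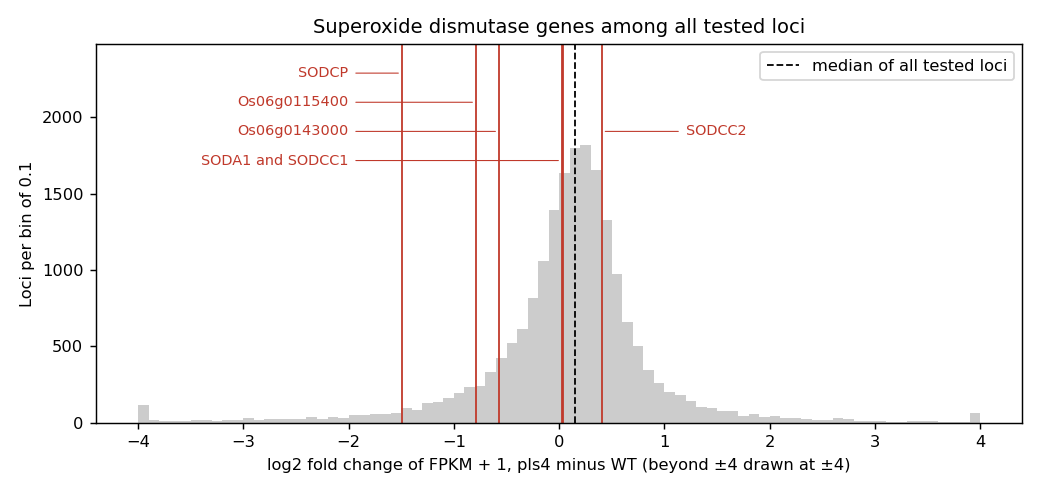
Distribution of the log2 fold change (pls4 minus wild type) over the 19637 tested loci in bins of 0.1, with red lines at the 6 superoxide dismutase genes and a dashed line at the median of 0.15. SODCP at -1.49 and the iron genes at -0.79 and -0.57 lie in the lower part of the distribution, and the other 3 lie near its centre.

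The order of levels within the family differed between genotypes. In pls4 the means ran from SODA1 (117 FPKM) and SODCC1 (90.9 FPKM) through Os06g0143000 (57.9 FPKM), SODCC2 (42.8 FPKM) and Os06g0115400 (39.9 FPKM) to SODCP (35.4 FPKM). In wild type they ran from SODA1 (114 FPKM) and SODCP (102 FPKM) through SODCC1 (88.8 FPKM), Os06g0143000 (86.4 FPKM) and Os06g0115400 (69.4 FPKM) to SODCC2 (32.2 FPKM). SODCP thus stood last in pls4 and next to the top in wild type. Ranges of neighbours in the order overlapped in pls4 between SODCC2 and Os06g0115400 and between Os06g0115400 and SODCP. In wild type they overlapped between SODCP and SODCC1 and between SODCC1 and Os06g0143000. All other neighbours were separated, SODA1 and SODCP in wild type by as little as 0.92 FPKM.

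By compartment, the plastid Cu/Zn and iron genes together summed to 143 and 123 FPKM in pls4, against 239, 275 and 259 FPKM in wild type. This sum in pls4 was 51.7% of that in wild type, while the cytosolic sum stood at 110.5% and SODA1 at 102.2%. The sum over all 6 genes was 384 ± 1.68 FPKM in pls4 and 493 ± 22.5 FPKM in wild type, or 77.9% of the wild type value. Shares within the family do not change when all values of a library are scaled by a common factor. SODCP held 10.1% and 8.38% of the family sum in pls4, against 18.3%, 21.4% and 22.1% in wild type. The iron pair held 27.3% and 23.7% in pls4, against 32.6%, 31.9% and 30.4% in wild type. Cytosolic Cu/Zn genes held 34.7% and 35.0% in pls4, against 25.5%, 23.7% and 24.5% in wild type. SODA1 held 28.0% and 32.9% in pls4, against 23.6%, 23.0% and 23.0% in wild type, a difference of 7.24 percentage points that was 4.77 without pls4 replicate 2. None of these 4 shares overlapped between genotypes. The shares make up the whole of the family sum and so are not separate observations. Separation was also common, since values of 69.9% of all tested loci did not overlap.

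**Figure D3:**
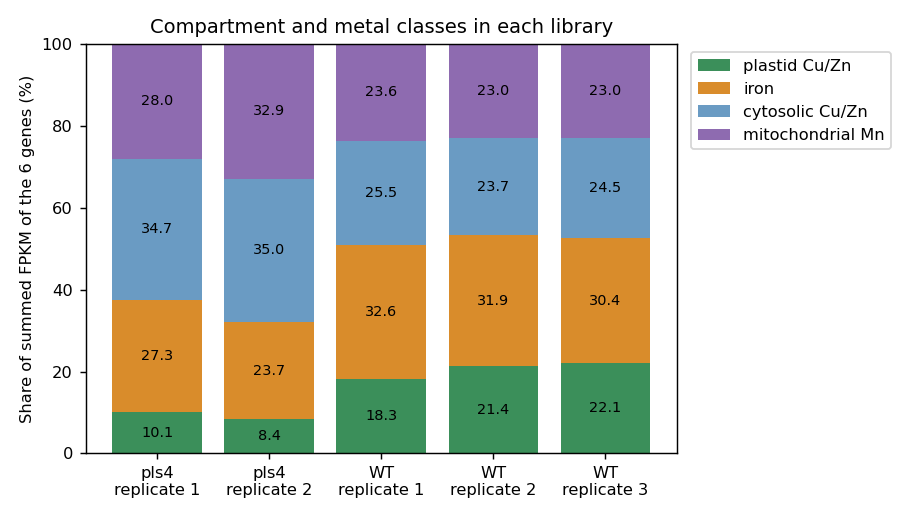
Share in percent of the summed FPKM of the 6 superoxide dismutase genes held by each compartment and metal class, 1 bar per library with the 2 pls4 libraries on the left. The plastid Cu/Zn and iron classes together hold 37.4% and 32.1% in pls4 and 50.9% to 53.3% in wild type.

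By metal, the Cu/Zn members of the set together held nearly the same share in both genotypes, at 44.1 ± 0.961% in pls4 and 45.2 ± 1.41% in wild type. Their summed level was lower in pls4, at 169 ± 2.95 FPKM against 223 ± 14.5 FPKM in wild type, or 75.9% of the wild type value. The plastid member held a smaller and the cytosolic members a larger share in pls4. Os03g0219200, listed among the copper genes as a further Cu/Zn superoxide dismutase, is outside the set. Sums, shares and ratios use only members of the set, so it enters none of them. Its name is also absent from the RefSeq table. Within the plastid Cu/Zn and iron sum, SODCP made up 27.0% and 26.1% in pls4, against 36.0%, 40.2% and 42.1% in wild type. Within the cytosolic sum, SODCC2 made up 32.2% and 31.8% in pls4, against 24.8%, 27.0% and 27.9% in wild type.

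Ratios between members within a library, which also cancel a common scaling factor, were compared in 5 pairs by an exact permutation test over libraries. With 2 against 3 libraries the smallest two-sided p that this test can give is 0.2, so none could pass a threshold of 0.05. All 5 ratios were fully separated between genotypes and had an exact permutation p of 0.2, also 0.2 after adjustment over the 5 pairs. The ratios share genes and so are not separate observations, and 69.9% of all tested loci were likewise without overlap. The ratio of SODCP to the summed cytosolic pair was 0.291 and 0.239 in pls4, against 0.717, 0.902 and 0.904 in wild type. That is a difference of -1.66 on the log2 scale, and it lay between -1.81 and -1.52 over the alternatives run. SODCC2 over SODCC1 was 0.474 and 0.467 in pls4, against 0.330, 0.370 and 0.387 in wild type, a log2 difference of 0.38. This ratio, unlike the call of SODCC2 itself, is not touched when all values of a library are scaled by a common factor. After quantile normalization its log2 difference was 0.34. SODA1 over the summed Cu/Zn genes was 0.625 and 0.759 in pls4 and 0.493 to 0.540 in wild type. Summed iron over summed Cu/Zn genes was 0.610 and 0.546 in pls4 and 0.653 to 0.744 in wild type. Os06g0115400 over Os06g0143000 was 0.751 and 0.626 in pls4 and 0.766 to 0.834 in wild type, and its log2 difference of -0.23 shrank to -0.10 without pls4 replicate 2.

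**Figure D4:**
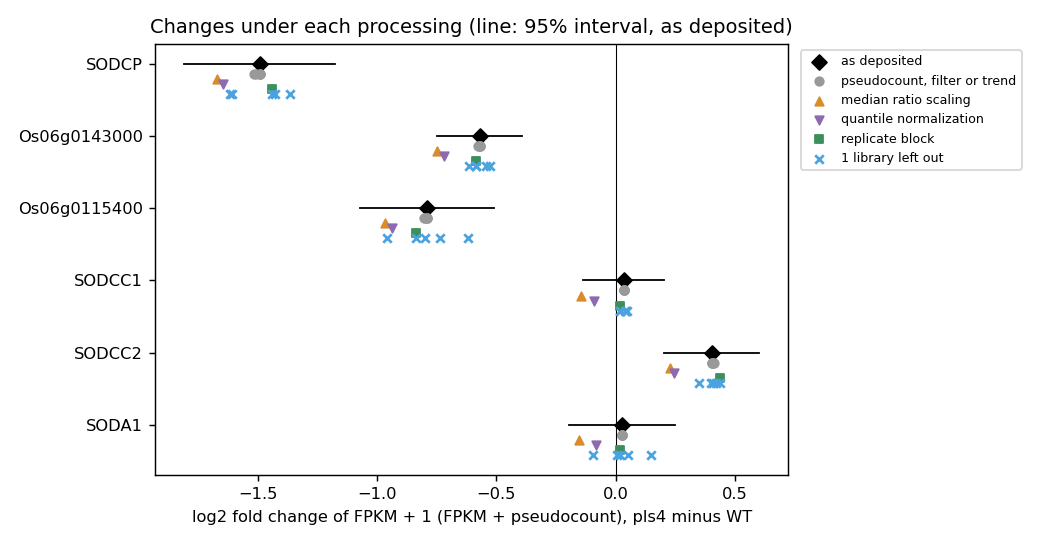
Log2 fold change (pls4 minus wild type) of each superoxide dismutase gene as deposited (black diamonds, with the 95% interval) and under the 13 alternatives (colours). SODCP and the iron genes stay below 0 throughout, and SODCC2 stays above 0. SODCC1 and SODA1 cross 0 when the libraries are rescaled, and SODA1 also without pls4 replicate 2.

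Some leaf cell markers also differed between genotypes. The mesophyll marker RBCS2 and the epidermis markers WSL1 and ONI1 were left out, as their names are absent from the RefSeq table. Both mesophyll markers with a checked name were called lower in pls4, as were 18.5% of all tested loci. Their summed level was 4916 to 5402 FPKM in pls4 against 11224 to 12277 FPKM in wild type. Rubisco activase (RCA, Os11g0707000) changed by -2.36 ± 0.18 and Lhcb1 (Os01g0600900), which encodes a light-harvesting protein, by -1.11 ± 0.14, and the call of Lhcb1 was lost after quantile normalization. The 3 secondary wall cellulose synthases that mark vascular tissue summed to 9.20 to 19.0 FPKM in pls4 against 1.77 to 3.07 FPKM in wild type. CESA4 (Os01g0750300), the 1 of them that reached an FPKM of 1 in both genotypes, was called higher (1.46 ± 0.25). CESA7 and CESA9 passed the filter only through the pls4 libraries, where they were high, so their higher calls carry no weight as a count, and without either pls4 library CESA4 alone was tested. PCNA (Os02g0805200), a marker of dividing cells, had 12.2 to 12.9 FPKM in pls4 and 14.3 to 15.4 FPKM in wild type and did not pass the test (-0.21), but it was called lower after median ratio scaling (-0.38; limma, adjusted p = 0.00769) and quantile normalization (-0.35; limma, adjusted p = 0.0104). None of the markers with a checked name was listed at 0 in any library. Their part in the changes of the superoxide dismutases was not tested, and in bulk leaf RNA fewer cells of a type cannot be told apart from less RNA per cell.

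Genes that deliver or use copper went both ways. Of 12 listed genes, 8 had a checked name and 6 of these were tested, of which 2 rose, 3 fell and 1 did not pass. Over all tested loci 33.4% were called higher and 18.5% lower. CCS (Os04g0573200), the chaperone that loads Cu/Zn superoxide dismutase, had 11.6 FPKM in both pls4 libraries, against 19.0, 21.0 and 21.2 FPKM in wild type. Its groups were well apart, and the log2 fold change was -0.76 ± 0.09 (limma, adjusted p = 0.000433). Plastocyanin (PETE, Os06g0101600), the copper protein of photosynthetic electron transport, averaged 2348 ± 155 FPKM in pls4 and 3720 ± 211 FPKM in wild type. Its fold change of -0.66 ± 0.12 was -0.29, without a call, after quantile normalization, and its call was also lost with the replicate block. The copper transporter gene COPT1 (Os01g0770700) had 29.7 and 35.7 FPKM in pls4, against 13.3, 17.3 and 14.7 FPKM in wild type, a fold change of 1.07 ± 0.13. HMA4 (Os02g0196600), a copper-pumping ATPase, rose by 0.68 ± 0.13 at low levels of 3.58 ± 0.339 FPKM in pls4 and 1.86 ± 0.304 FPKM in wild type.

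Catalases and ascorbate peroxidases remove the hydrogen peroxide that superoxide dismutases make. Both catalase genes tested were called higher, where 33.4% of all tested loci were called higher and 18.5% lower. A further listed catalase, CATC (Os03g0131200), was left out because its name is absent from the RefSeq table. CATA (Os02g0115700) had 836 and 1071 FPKM in pls4, against 395, 482 and 520 FPKM in wild type (1.03 ± 0.15), and CATB (Os06g0727200) changed by 0.47 ± 0.11, which missed the threshold when pls4 replicate 2 was left out, after median ratio scaling and with the replicate block. The 8 ascorbate peroxidase genes split into 4 that rose, 2 that fell and 2 without a call. These include APX3, which passed the filter only through pls4, where it was higher, and Os12g0178200, which passed only through wild type, so their direction was fixed by the filter and the counts lend no support. Only 2 rose without pls4 replicate 1 or under median ratio scaling, and 1 fell without wild type replicate 3 or pls4 replicate 2. The cytosolic APX2 (Os07g0694700) had 1996 and 1827 FPKM in pls4, against 987, 1137 and 1109 FPKM in wild type (0.83 ± 0.11). Cytosolic APX1 (Os03g0285700) rose by 0.77 ± 0.08, and like APX2 it kept its call under all alternatives run. The thylakoid-bound APX8 (Os02g0553200) averaged 268 ± 46.9 FPKM in pls4 and 421 ± 70.0 FPKM in wild type (-0.65 ± 0.16), which missed the threshold with the replicate block and when either wild type replicate 3 or pls4 replicate 2 was left out. Os12g0178200 belongs to the adjacent pair APX5 and APX6, whose names could not be told apart by position, and had 0.78 and 0.96 FPKM in pls4, against 8.0, 9.48 and 8.71 FPKM in wild type (-2.38 ± 0.12).

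Thiol peroxidases and their reductant had 12 listed genes. Of these 5 had a checked name and were tested, with 2 higher, 2 lower and 1 without a call. BAS1 (Os02g0537700), the plastid 2-Cys peroxiredoxin, had 346 and 282 FPKM in pls4, against 554, 712 and 687 FPKM in wild type, a fold change of -1.05 ± 0.14. NTRC (Os07g0657900), the plastid thioredoxin reductase that regenerates it, changed by -0.61 ± 0.13. The calls of PRXIIC (Os01g0675100; 0.35 ± 0.08) and PRXIIE (Os06g0625500; 0.28 ± 0.09) were lost under median ratio scaling and with the replicate block, and PRXIIE's also after quantile normalization. PRXIIC missed the threshold without wild type replicate 3 or pls4 replicate 1, and PRXIIE without any 1 wild type library or pls4 replicate 2, so that 0 or 1 of them stayed called when a library was left out. Of 8 genes listed for recycling of ascorbate and glutathione, 2 had a checked name and were tested. Of these, glutathione reductase GR1 (Os02g0813500) had 217 and 220 FPKM in pls4, against 84.5, 78.8 and 71.8 FPKM in wild type. Its fold change of 1.47 ± 0.09 was larger than that of any other higher call in these lists, and MDAR5 (Os08g0151800) did not pass the test (0.23 ± 0.10; limma, adjusted p = 0.0826), although it did without wild type replicate 1. RBOHB (Os01g0360200), an NADPH oxidase that makes superoxide outside the plasma membrane, had 69.4 and 65.2 FPKM in pls4, against 121, 128 and 130 FPKM in wild type (-0.90 ± 0.08). Of 8 listed NADPH oxidase genes it was the only 1 with a checked name. Over all these lists, 24 of 27 genes with checked names were tested, of which 11 were called higher and 8 lower, APX3 and Os12g0178200 among them, against the backgrounds of 33.4% and 18.5%.

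**Figure D5:**
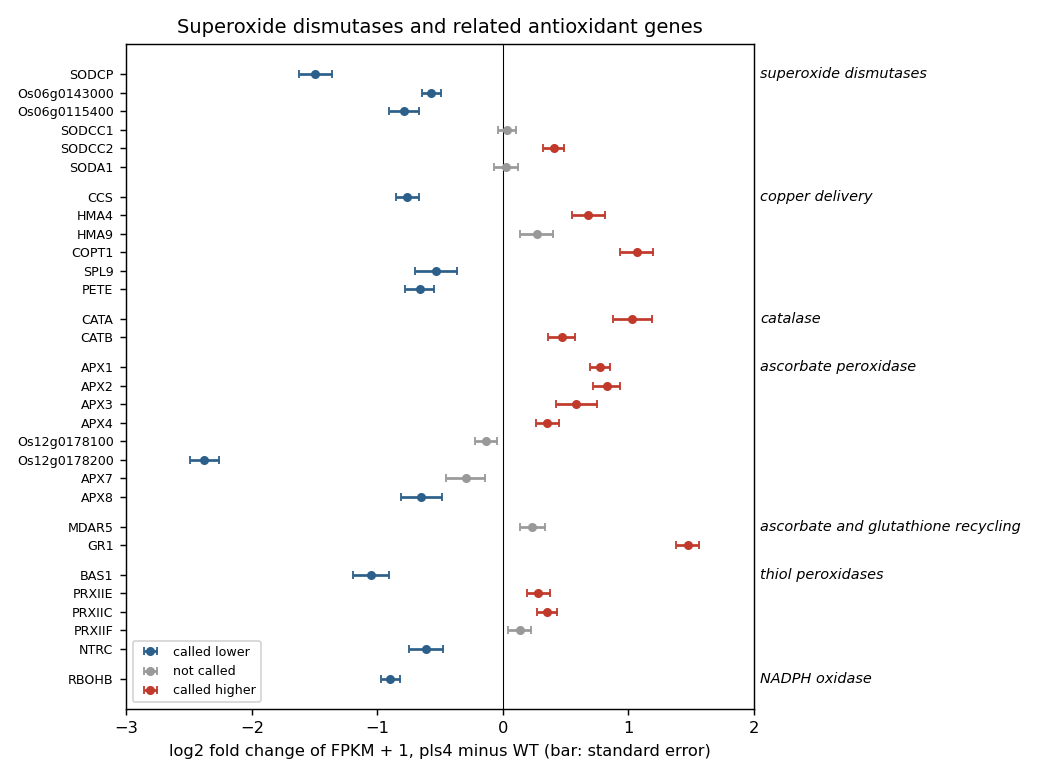
Log2 fold change (pls4 minus wild type) with its standard error for the 6 superoxide dismutase genes and the 24 tested genes of related lists, blue where called lower, red where called higher and grey where not called. Called lower are SODCP, both iron genes, CCS, SPL9, PETE, APX8, Os12g0178200, BAS1, NTRC and RBOHB. Called higher are SODCC2, HMA4, COPT1, both tested catalases, APX1, APX2, APX3, APX4, GR1, PRXIIE and PRXIIC.

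The loci whose levels were most like those of SODCP over the 5 libraries, by root mean square difference of log2(FPKM + 1), were Os09g0439500, Os02g0764500 and Os04g0591000, at 0.151 to 0.156. Os09g0439500 had 38.6 and 26.3 FPKM in pls4, against 90.2, 122 and 116 FPKM in wild type. The sources used here give these 3 loci no name.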

How the data were processed

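Each library has 1 file of FPKM made by the authors, as its header states, although the file names say RPKM. TopHat2 2.1.1 and the build IRGSP-1.0 are named in the submitters' processing notes. What tool counted the reads, with which annotation, gene lengths and scaling between libraries, is not given in the sources. No read counts were used. At most 0.276% of loci at an FPKM of 5 or more held equal values in 2 libraries.

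The limma package (3.58.1, R 4.3.3) was fitted to log2(FPKM + 1) with a trended variance and no term besides genotype. The fit was tested on simulated pls4 and wild type data with 100 genes changed by 1 and 100 by 2 on the log2 scale. With spreads drawn from all loci (18614 loci tested) it gave back 66% and 91% of them, with 4.27% false calls. A second simulation, added after that one, drew spreads from loci of like level (18625 loci) and gave 79%, 96% and 3.85%. Both changed only genes above a set wild type level and took all spreads from the wild type libraries. In the real data 52.0% of tested loci were called, far more than were changed here, so these rates may not carry over. Exact permutation tests used scipy 1.17.1. The members and lists were chosen with earlier results of these data known. Text named all members and, per list, the 2 called genes with the largest change in each direction. Of 58 listed pathway pairs of name and identifier, the 27 whose chromosome and relative gene order matched the RefSeq table (ASM3414082v1, protein-coding genes, tolerance 0.05 of the chromosome) were kept; 31 names are absent from that table. Alternatives were pseudocounts of 0.5 and 0.1, no filter, an FPKM of at least 5, median ratio scaling, quantile normalization, no variance trend, a replicate block and leaving out each library.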

Additional observations from a re-analysis of the deposited data

How the results depend on the processing

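Over 13 alternatives the fold change of SODCP ranged from -1.67 to -1.37, that of Os06g0143000 from -0.75 to -0.53 and that of Os06g0115400 from -0.97 to -0.62, each always called lower. SODCC2 ranged from 0.23 to 0.44 and lost its call under median ratio scaling (0.23) and quantile normalization (0.24). SODCC1 changed sign under both (-0.146 and -0.0927), as did SODA1 (-0.153 and -0.0808), and leaving out single libraries moved SODA1 between -0.0941 and 0.147; neither was called anywhere. With median ratio scaling 4243 loci were called higher, and 3997 (without pls4 replicate 2) to 6794 when 1 library was left out. All shares and ratios within the family kept their direction after quantile normalization and when 1 library was left out, the ratios also with a pseudocount of 1. The other alternatives were not run for them. Counts in the lists moved as follows. With median ratio scaling 1 catalase, 2 ascorbate peroxidases and 0 thiol peroxidases were called higher and 4 ascorbate peroxidases lower. After quantile normalization 4 ascorbate peroxidases were lower and 1 thiol peroxidase higher, and 1 thiol peroxidase was higher with no variance trend. With an FPKM of at least 5 required, 1 copper gene was higher. Leaving out 1 library gave 1 to 2 catalases, 2 to 4 ascorbate peroxidases, 0 to 1 thiol peroxidases and 1 to 2 recycling genes higher, and 1 to 2 ascorbate peroxidases lower. Without either pls4 library 1 of the 3 vascular markers was tested and called higher, and none was tested with an FPKM of at least 5 required. The 1 catalase came without pls4 replicate 2, the 2 ascorbate peroxidases higher without pls4 replicate 1, and the 2 recycling genes without wild type replicate 1. The cause was not tested.

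The replicate numbers pair nothing that the labels state, and deviations of same-numbered libraries from their group means correlated at -0.095 for number 1 and -0.138 for number 2. With the replicate block 7294 loci were called, 4408 of them higher; SODCP, both iron genes and SODCC2 stayed called (SODCC2 at 0.44, adjusted p = 0.0443), and 1 catalase, 2 ascorbate peroxidases and 0 thiol peroxidases were called higher and 1 ascorbate peroxidase lower. Read depth behind the FPKM is unknown, so no counting interval can be given.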

Other observations

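SPL9 (Os05g0408200), an SBP-box transcription factor in the copper list, was chosen after its values were seen. It had 49.8 and 54.4 FPKM in pls4, against 97.2, 67.9 and 65.8 FPKM in wild type, with a log2 fold change of -0.53 ± 0.17 (limma, adjusted p = 0.0332). Its call was lost with no filter on low values and without either pls4 library.

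Loci next to the superoxide dismutase genes were counted, taking the 5 tested loci on each side by identifier. Around SODCP, 5 of these 10 neighbours were called higher and 1 lower, with a median fold change of 0.26. Around Os06g0115400, 5 were called higher and 2 lower (median 0.33), and around Os06g0143000, 2 higher and 1 lower (median -0.03). Around SODA1, 3 were called higher and 2 lower (median -0.03). The neighbours of SODCC2 gave 2 higher and 1 lower (median 0.13). Around SODCC1, whose own level did not pass the test, 5 neighbours were called higher and 1 lower (median 0.43). In all, 22 of 60 neighbours were called higher and 8 lower, where 33.4% and 18.5% of all tested loci were.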
